A study of Canis lupus familiaris with 18 samples.

Results

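HIP1 (ENSCAFG00000013367), which encodes huntingtin interacting protein 1, was described together with 9 genes of the machinery in which its protein works, clathrin-mediated endocytosis. The 10 genes were taken by symbol from the 29993 genes counted, each had 1 row, and all 10 passed the filter on low counts, which kept 16495 genes. HIP1 was chosen because each French bulldog had less of it than each dog of the comparison group, so that difference is given here as a description, without a test. The 9 partners were chosen by name for their role and not for their values. They were HIP1R, PICALM, EPN1, CLTC, CLTA, CLTB, AP2A1, AP2B1 and DNM2.

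The tissue was prosencephalic high grade oligodendroglioma (HGO), a glial tumor of the forebrain that is frequent in short-nosed breeds. RNASeq libraries of total RNA depleted of ribosomal RNA were made from formalin-fixed, paraffin-embedded tumor of 11 French bulldogs and of 7 comparison dogs, 4 boxers and 3 Boston terriers. All were spontaneous tumors of pet dogs, resected before any trial treatment, and no normal brain was analysed here, and breed is what the labels give to separate the groups. Breed within the comparison group and the numbers 1 to 11 and 1 to 7 are those of the labels, which do not give the age of a dog.

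In clathrin-mediated endocytosis, the AP2 complex binds cargo receptors and the lipid PIP2 at the plasma membrane and recruits clathrin, which assembles from heavy and light chains into a lattice around the budding pit. Adaptors with an ANTH or ENTH domain bind the same lipid and link the lattice to the membrane or to actin, dynamin constricts the neck of the pit, and the coat is then stripped off and the vesicle fuses with the early endosome. HIP1 carries an ANTH domain, binds clathrin, AP2 and huntingtin, and its loss or excess alters how long growth factor receptors remain at the cell surface. Clathrin chains and AP2 are made in nearly every cell type, whereas some paralogs, such as SNAP91 and DNM1, are made mainly by neurons.

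Counts on genes ranged from 8212452 to 13169880 per library. A level of 3 counts, taken as the smallest the depth could show, was 0.228 to 0.365 CPM (counts scaled to the library total), and this limit covers counting error only. The levels below are CPM normalized by the TMM method of edgeR. None of the 10 genes came near that limit, and the lowest count was 51, for HIP1R in French bulldog 6. French bulldog 6 stood apart from the other libraries. The summed CPM of 7 genes of the oligodendrocyte lineage was 43.5 in this library, with OLIG2 and NKX2-2 at 0 counts, against 1127 to 6884 in the other French bulldogs and 1687 to 3395 in the comparison group, where none of the 7 genes was at 0. The sum of 8 macrophage and microglia markers was 5212 in French bulldog 6, 43.1 to 270.4 in the other French bulldogs and 59.9 to 145.7 in the comparison group. The label of French bulldog 6 as an oligodendroglioma thus goes against its markers, and values without it are given beside those it moves most. French bulldogs 2 and 8 share a case number in their labels, and their log2 CPM correlated at r = 0.981, against 0.520 to 0.941 for the other pairs of French bulldogs. Their patient details in the study are also the same, so they may come from the same dog or tumor. Their counts differed by more than counting noise, with a chi-square of 9.41 per gene against 33.1 to 326 for the other pairs, so they are not a library deposited again, but separate pieces of the same tumor would differ in this way too. Counted as separate libraries, they make p-values too small if they share a dog. With their counts summed, 0 of the 9 partners described below had an adjusted p under 0.05 and 2 an unadjusted p under 0.05 by edgeR. Beside these, 0 of all genes passed after adjustment and 9.56% before it. Nothing else in the labels says how dogs were sampled, and p-values measure the spread between these libraries.

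HIP1 was about 2-fold lower in French bulldogs. Its level was 239 ± 65.1 CPM (SD, n = 11) in French bulldogs and 531 ± 138 CPM (SD, n = 7) in the comparison group. Among French bulldogs it ranged from 145 in dog 6 to 363 in dog 10, with a median of 247. The boxers numbered 1, 3, 4 and 5 had 558, 549, 457 and 511 CPM, and the Boston terriers numbered 2, 6 and 7 had 408, 813 and 420 CPM. The groups did not overlap, as the choice of the gene requires, and the members nearest to the border were French bulldog 10 and Boston terrier 2, at a ratio of 0.890. Of all 16495 genes tested, 8 (0.0485%) had each French bulldog below each comparison library and 1 (0.00606%) had each above. The raw counts of HIP1, before any scaling, were 1393 to 3567 in French bulldogs and 4332 to 9716 in the comparison group and did not overlap either, which held for 5 genes (0.0303%).

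**Figure D1:**
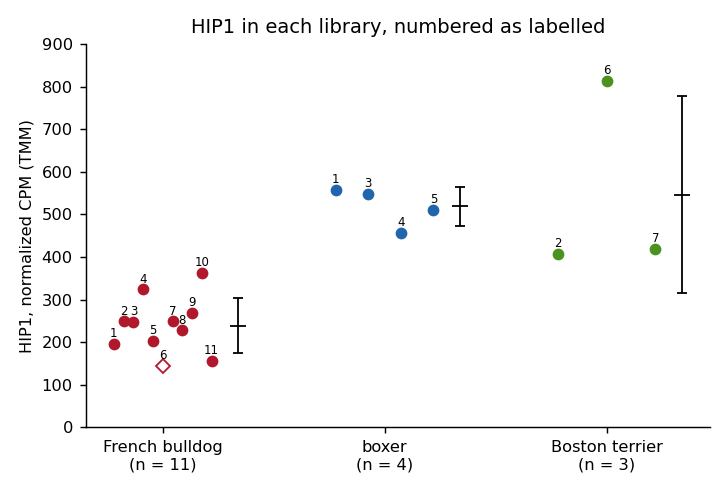
HIP1 in each library, in CPM normalized by TMM, by breed and with the number that the labels give each dog. Horizontal marks are means, bars are 1 SD, and the open diamond is French bulldog 6. The 11 French bulldogs lie between 145 and 363 CPM and the 7 comparison libraries between 408 and 813 CPM.

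The log2 fold change of HIP1 fitted by edgeR was -1.15 (SE 0.19), and it was -1.07 (SE 0.17) without French bulldog 6. The difference in mean log2 CPM was -1.16, against a pooled SD within groups of 0.38. Leaving out each library in turn moved it between -1.23 and -1.06, and scaling by the library total alone gave -1.28. Against the boxers alone the fitted value was -1.12 (SE 0.22), and against the Boston terriers alone -1.18 (SE 0.27). In bulk tissue, fewer cells of a type that makes a transcript and less of it per cell cannot be told apart.

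Within the comparison group, which did not enter the choice of HIP1 as separate breeds, HIP1 was 519 ± 46.0 CPM (SD, n = 4) in boxers and 547 ± 230 CPM (SD, n = 3) in Boston terriers. The log2 fold change of boxers against Boston terriers was -0.09 (SE 0.27), with an adjusted p of 0.952 by edgeR's quasi-likelihood test with Benjamini-Hochberg adjustment. It turned to 0.29 without Boston terrier 6, the library with the highest HIP1 of all 18. The order by mean was Boston terriers, boxers and French bulldogs, whereas by median boxers (530 CPM) were above Boston terriers (420 CPM). Boxers did not differ from Boston terriers beyond their spread, so no order of these 2 breeds follows. The library numbers of the comparison group form a run of 18 to 21 and a run of 1 to 3, each with boxers and Boston terriers. Which of them were sequenced with the French bulldogs is not stated in the sources used here. HIP1 differed between these runs by -0.25 on the log2 scale (SE 0.26, adjusted p = 0.990 by edgeR's quasi-likelihood test), and the French bulldogs differed from them by -1.04 and -1.27.

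None of the 9 partners passed the test between French bulldogs and the comparison group after adjustment over all genes, by edgeR, DESeq2 or limma-voom, where edgeR called 0.00606% of all genes, DESeq2 0.213% and limma-voom 0.0121%. With so few genes called, 0 of 9 is the background share and is not a result about the partners. At an unadjusted p under 0.05, 2 of 9 partners passed by each of the 3 tools, HIP1R with the lower and PICALM with the higher mean in French bulldogs, beside 10.6% of all genes by edgeR, 9.63% by DESeq2 and 9.31% by limma-voom. By edgeR, 7.02% of all genes passed with the higher and 3.55% with the lower mean. The median log2 fold change of the 9 partners was 0.10, and that of all genes tested was 0.04. No partner was without overlap between the groups.

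**Figure D2:**
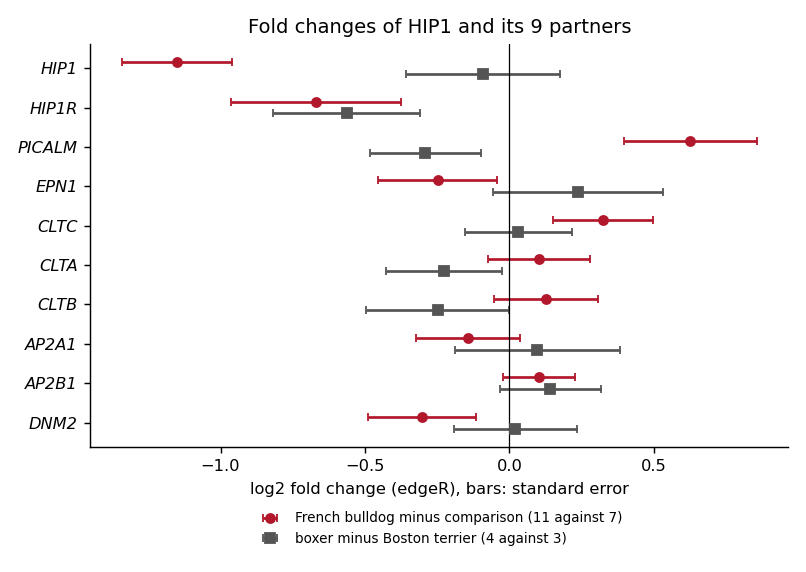
Log2 fold changes of HIP1 and the 9 partners fitted by edgeR, for French bulldogs minus the comparison group (circles) and boxers minus Boston terriers (squares). Bars are 1 standard error. HIP1 at -1.15, HIP1R at -0.67 and PICALM at 0.63 lie farthest from 0 for the French bulldogs, and HIP1 was chosen for its value in this comparison.

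Among the adaptors with an ANTH or ENTH domain, HIP1R and PICALM had the fitted differences farthest from 0 of the 9 partners. HIP1R (ENSCAFG00000007764) encodes the paralog of HIP1, which also binds clathrin light chains and links the coat to actin. HIP1R was 5.31 CPM in French bulldog 6 and 33.5 to 62.4 in the other French bulldogs, with a median of 39.3 over all 11. The boxers numbered 1, 3, 4 and 5 had 53.8, 57.7, 54.0 and 43.8 CPM, and the Boston terriers numbered 2, 6 and 7 had 47.5, 88.7 and 91.7 CPM. The groups overlapped, with 8 of 11 French bulldogs below every comparison library and 11 of 11 below the comparison mean of 62.4. French bulldog 9, at 62.4451 CPM, was only just below that mean of 62.4458. Its log2 fold change was -0.67 (SE 0.29, unadjusted p = 0.0350, adjusted p = 0.446 by edgeR's quasi-likelihood test with Benjamini-Hochberg adjustment). Without French bulldog 6 it was -0.52 (SE 0.18), with an unadjusted p of 0.00821 and an adjusted p of 0.371 by the same edgeR test. The unadjusted p by edgeR was 0.0507 without French bulldog 10, 0.0854 without Boston terrier 6, 0.0904 without Boston terrier 7 and 0.0521 with 1 surrogate variable. Against the comparison libraries numbered 18 to 21 alone it was 0.240, at a log2 fold change of -0.44. With a block for the dog numbers 1 to 7 the unadjusted call was also lost. Against boxers alone the log2 fold change was -0.41 (SE 0.36, unadjusted p = 0.269 by edgeR) and against Boston terriers alone -0.94 (SE 0.42, unadjusted p = 0.0388 by edgeR).

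PICALM (ENSCAFG00000004486) encodes the clathrin assembly protein CALM, an ANTH domain adaptor that sets the size of coated vesicles and sorts the SNARE proteins that vesicles need to fuse. Its level was 139 to 563 CPM in French bulldogs, with a median of 221, and 124 to 195 CPM in the comparison group, with a median of 146. French bulldog 6 was the highest, at 563, and the next highest was dog 10 at 249.6. Of the 11 French bulldogs, 7 were above every comparison library and 10 were above the comparison mean of 153. It had a log2 fold change of 0.63 (SE 0.23, unadjusted p = 0.0136, adjusted p = 0.433 by edgeR's quasi-likelihood test). Without French bulldog 6 it was 0.43 (SE 0.14), with an unadjusted p of 0.00500 and an adjusted p of 0.365 by the same edgeR test. The unadjusted call was lost against Boston terriers alone (0.49, unadjusted p = 0.188 by edgeR), against the comparison libraries numbered 1 to 3 alone (0.54, unadjusted p = 0.159) and with a block for the dog numbers 1 to 7 (0.51, unadjusted p = 0.0797).

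EPN1 (ENSCAFG00000002531) encodes epsin 1, an ENTH domain protein that bends the membrane and binds ubiquitinated cargo. It was 23.2 to 64.9 CPM in French bulldogs and 34.5 to 77.1 CPM in the comparison group, and the groups overlapped over most of their range. Its log2 fold change was -0.25 (SE 0.21, adjusted p = 0.678 by edgeR's quasi-likelihood test), and it was -0.0618 without boxer 4, the library with the highest EPN1.

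**Figure D3:**
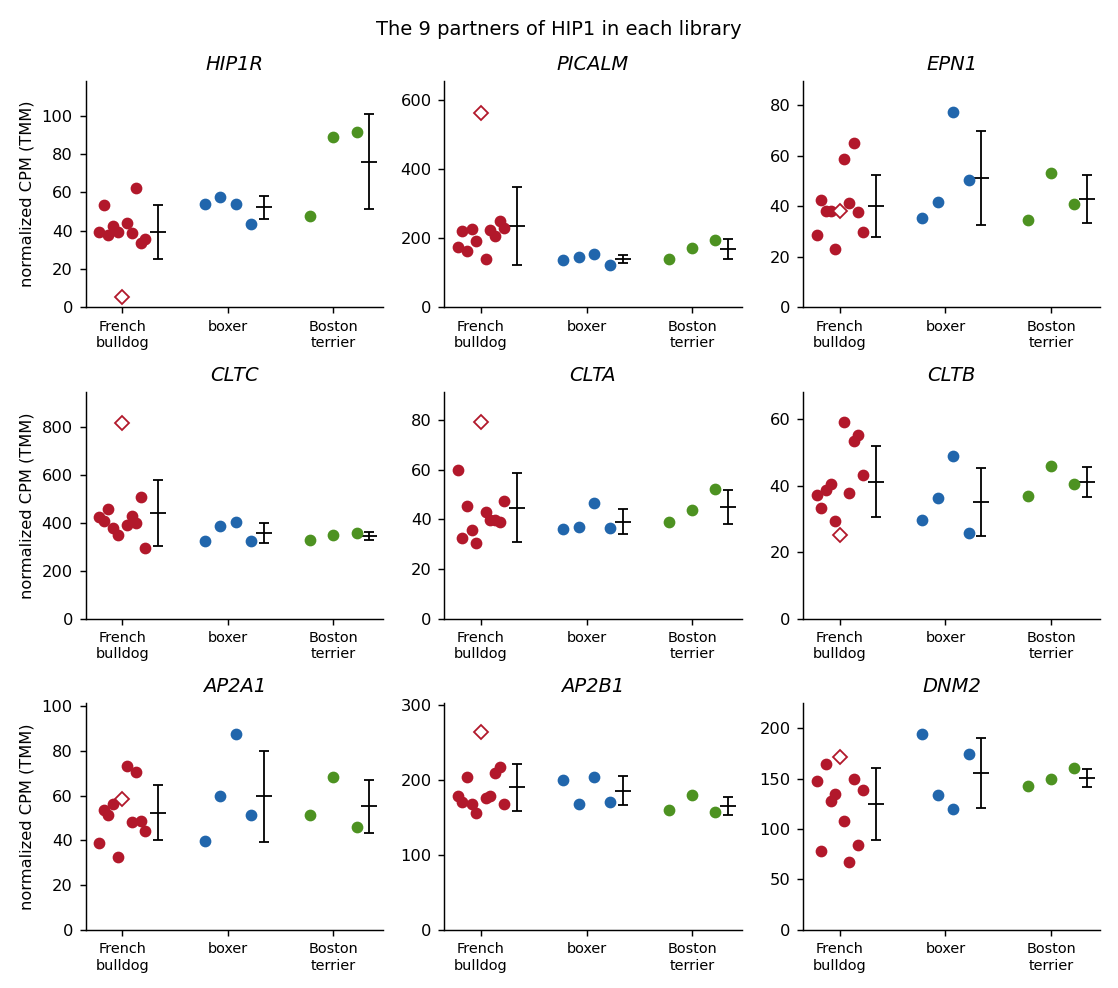
The 9 partners of HIP1 in each library, in CPM normalized by TMM, by breed, with means and bars of 1 SD. The open diamond is French bulldog 6, which is the lowest of the 18 libraries for HIP1R (5.31 CPM) and CLTB (25.3 CPM) and the highest for PICALM (563 CPM), CLTC (819 CPM), CLTA (78.9 CPM) and AP2B1 (264 CPM).

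No clathrin chain passed the test. CLTC (ENSCAFG00000017647), the heavy chain that forms the legs of the clathrin triskelion, was 294 to 819 CPM in French bulldogs, with a median of 409, and 323 to 403 CPM in the comparison group, with a median of 351. Its log2 fold change was 0.33 (SE 0.17, adjusted p = 0.506 by edgeR's quasi-likelihood test) and 0.22 (SE 0.12) without French bulldog 6. Its unadjusted p was 0.0767 by edgeR and 0.0520 by DESeq2, and 0.0406 by edgeR without French bulldog 11, the lowest of its group. The French bulldogs with CLTC above every comparison library numbered 6. The light chains bind the heavy chain and are contacted by HIP1 and HIP1R. CLTA (ENSCAFG00000002292) was 44.6 ± 13.9 CPM (SD, n = 11) in French bulldogs and 41.5 ± 6.12 CPM (SD, n = 7) in the comparison group. CLTB (ENSCAFG00000016689) was 41.3 ± 10.8 CPM (SD, n = 11) and 37.8 ± 8.32 CPM (SD, n = 7). Neither passed the test, with log2 fold changes of 0.10 (SE 0.18, adjusted p = 0.874) and 0.13 (SE 0.18, adjusted p = 0.839) by edgeR's quasi-likelihood test. Without French bulldog 6, the highest for CLTA and the lowest for CLTB, they were 0.0159 (SE 0.15) and 0.21 (SE 0.17).

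Neither AP2 subunit passed the test. AP2A1 (ENSCAFG00000003541), an alpha subunit that binds PIP2, was 52.3 ± 12.2 CPM (SD, n = 11) in French bulldogs and 57.7 ± 16.1 CPM (SD, n = 7) in the comparison group. Its log2 fold change was -0.14 (SE 0.18, adjusted p = 0.804 by edgeR's quasi-likelihood test), and the sign depended on boxer 4, which had the highest AP2A1, since the value was 0.015 without it. AP2B1 (ENSCAFG00000018246), the beta subunit that recruits clathrin, was 190 ± 31.3 CPM (SD, n = 11) and 177 ± 18.5 CPM (SD, n = 7), a log2 fold change of 0.10 (SE 0.13, adjusted p = 0.799 by edgeR's quasi-likelihood test). AP2B1 was the steadiest of the 10 genes among French bulldogs, with an SD of log2 CPM of 0.22, and 1.69% of the genes tested had a smaller SD. The median SD over all genes was 0.69, and that of HIP1 was 0.40, with 20.1% of genes below it. In the comparison group CLTC was the steadiest, at 0.13, HIP1 was at 0.34, and the median of all genes was 0.45.

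DNM2 (ENSCAFG00000017651) encodes the dynamin that most cells use to cut the neck of the coated pit. It was 67.0 to 171 CPM in French bulldogs, with a median of 135, and 120 to 194 CPM in the comparison group, with a median of 150. French bulldogs 2, 7, 8 and 10, at 78.5, 108, 67.0 and 84.1 CPM, were below every comparison library, and dogs 2 and 8 among them share a case number. The log2 fold change was -0.30 (SE 0.19, adjusted p = 0.564 by edgeR's quasi-likelihood test), and the groups overlapped in the remaining 7 French bulldogs.

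Boxers and Boston terriers were compared for the same 10 genes to measure how much breed moved them within the comparison group. None of the 10 genes passed an adjusted or an unadjusted p of 0.05 by edgeR's quasi-likelihood test or by DESeq2, beside 0 genes after adjustment and 6.23% of all genes before it by edgeR, and 0.154% and 5.33% by DESeq2. HIP1R came closest, at 52.3 ± 5.96 CPM (SD, n = 4) in boxers and 76.0 ± 24.7 CPM (SD, n = 3) in Boston terriers. Its log2 fold change was -0.56 (SE 0.25, unadjusted p = 0.0538, adjusted p = 0.795 by edgeR's quasi-likelihood test). Without Boston terrier 2 it was -0.79 with an unadjusted p of 0.00492, and with no filter on low counts the unadjusted p was 0.0451, both by edgeR. PICALM followed at -0.29 (SE 0.19, adjusted p = 0.823 by the same edgeR test).

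Ratios of counts within a library do not depend on how libraries are scaled. As a description, the ratio of HIP1 to PICALM counts was 0.258 to 1.79 in French bulldogs, with a median of 1.13, and 2.15 to 4.74 in the comparison group, with a median of 3.77. The lowest was that of French bulldog 6, the other 10 were at least 0.682, and the groups did not overlap. This separation is largely carried over from the choice of HIP1, whose own level does not overlap, and nothing is read from it. The ratio of HIP1 to HIP1R counts was 4.29 to 10.8 in 10 French bulldogs and 27.1 in French bulldog 6, and 4.58 to 11.7 in the comparison group, so it overlapped. The 4 ratios that leave out HIP1 were compared by an exact two-sided permutation test of the group labels and adjusted over these 4 ratios. CLTA to CLTB, the ratio of the light chains, differed by -0.05 on the log2 scale (exact permutation p = 0.863, adjusted 0.863) and by -0.20 without French bulldog 6, and the medians were 1.04 for French bulldogs and 1.05 for the comparison group. AP2A1 to AP2A2, the ratio of the alpha subunits, differed by -0.20 (exact permutation p = 0.273, adjusted 0.546), and leaving out each library moved it from -0.30 without boxer 1 to -0.0970 without boxer 4. DNM2 to DNM1, the ratio of the widely made dynamin to that of neurons, differed by 0.53 (exact permutation p = 0.529, adjusted 0.705), and leaving out each library moved it from 0.22 without French bulldog 1 to 0.91 without Boston terrier 7. PICALM to SNAP91, the ratio of CALM to its neuronal paralog AP180, differed by 2.07 (exact permutation p = 0.151, adjusted 0.546). SNAP91 had 0 counts in French bulldog 6, so the value there rests on the added 0.5 counts, and the difference was 1.05 without that library. None of the 4 ratios passed the test.

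**Figure D4:**
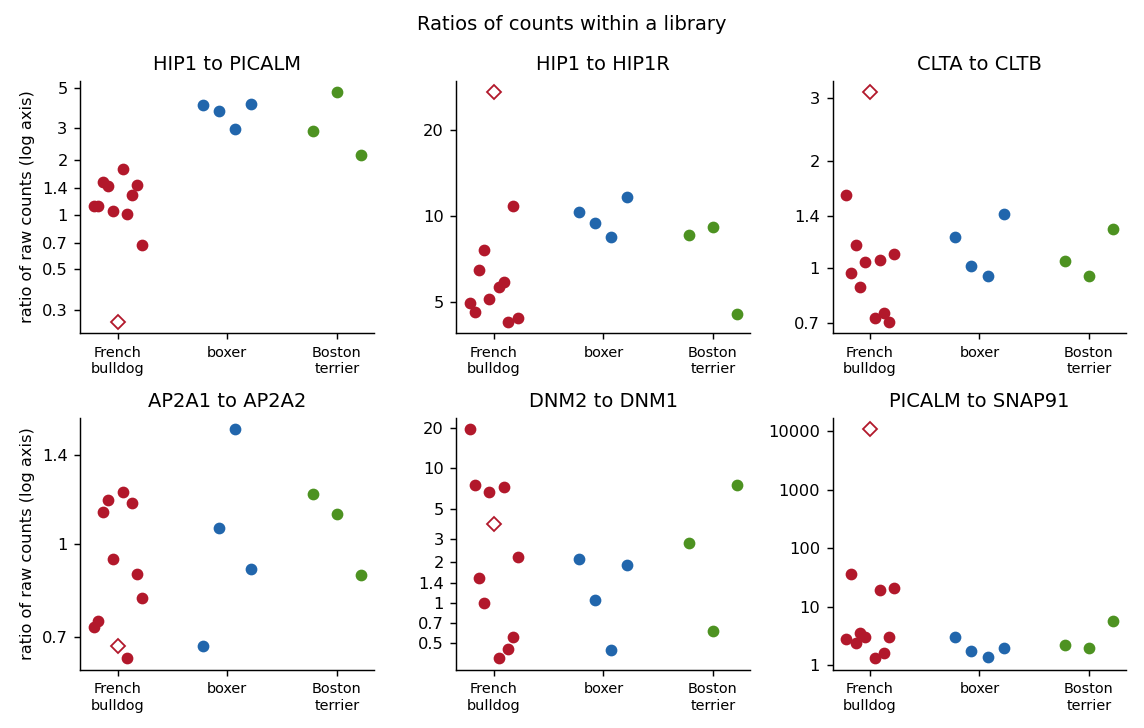
Ratios of raw counts of gene pairs in each library, by breed, on log axes, with French bulldog 6 as an open diamond. The HIP1 to PICALM ratio is at most 1.79 in French bulldogs and at least 2.15 in the comparison group, which is largely carried over from the choice of HIP1, and the other 5 ratios overlap between the groups. The PICALM to SNAP91 value of French bulldog 6 rests on the added 0.5 counts.

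HIP1 was also compared with its partners within each group, where the difference between the groups does not enter. Among the French bulldogs, with dogs 2 and 8 averaged as 1 case (n = 10), none of the 9 correlations of log2 CPM had an adjusted p under 0.05 in a permutation test. With French bulldog 6 in, the correlations farthest from 0 were those with the light chains. HIP1 and CLTB had r = 0.629 (permutation p = 0.0513, adjusted 0.237) and rho = 0.673 (permutation p = 0.0391, adjusted 0.352), and r was 0.595 without dogs 6 and 11, which were farthest from the median of HIP1. HIP1 and CLTA had r = -0.623 (permutation p = 0.0529, adjusted 0.237) and rho = -0.588 (permutation p = 0.0811, adjusted 0.365), and r was -0.268 without dogs 6 and 11. HIP1 and HIP1R had r = 0.565 (permutation p = 0.0789, adjusted 0.237) and rho = 0.382 (permutation p = 0.277, adjusted 0.526), which rested on those dogs, since r was -0.111 without them. The order of the partners depended on dog 6. With it, r was -0.148 for CLTC, -0.403 for PICALM and -0.105 for AP2B1, and without it r was 0.706, 0.222 and 0.545, with CLTC then the farthest from 0 (n = 9, permutation p = 0.0330, adjusted 0.297). In the comparison group (n = 7) r lay between -0.197 and 0.366, and the smallest adjusted p was 0.880 (exact permutation test over both measures).

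Genes most like HIP1 in their pattern were ranked among the 11583 genes with a symbol that passed the filter. By Spearman correlation of log2 CPM over the 18 libraries, which share the difference between the groups, the first 5 were PSD2 (0.920), TMEM120B (0.889), CCDC78 (0.878), TESK1 (0.853) and HAGHL (0.847). PSD2 encodes an exchange factor for the small GTPase ARF6 and TESK1 a kinase of the actin regulator cofilin. PSD2 was 41.6 ± 18.4 CPM (SD, n = 11) in French bulldogs and 126 ± 47.1 CPM (SD, n = 7) in the comparison group. HIP1R ranked 90th of the 11583 genes, at 0.725, the highest of the 9 partners, and PICALM ranked 11160th, at -0.593. When each group was centred on its mean, the first 5 by Pearson correlation were DYNC1I1 (0.802), PHF24 (0.792), RGS17 (0.785), RGS8 (0.783) and CALY (0.778). DYNC1I1 encodes an intermediate chain of dynein that neurons make, RGS17 and RGS8 encode regulators of G protein signalling, and CALY encodes calcyon, a neuronal vesicle protein that binds clathrin light chains. The first 5 genes by this second measure had log2 fold changes of -0.40 to 0.19 between the groups. The libraries of each group also differ in their marker sums, given next, and the part of these in such correlations was not tested.

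Neuronal markers moved with HIP1 within the French bulldogs. The summed CPM of 8 neuronal genes was 5.94 in French bulldog 6, with GAD1 at 0 counts, and 68.7 to 1462 in the other French bulldogs, with a median of 158 over all 11. In the comparison group it was 96.6 to 1201, with a median of 292, and none of the 8 genes was at 0 outside French bulldog 6. The groups overlapped, and none of the 8 genes had an unadjusted p under 0.05 between them by edgeR. Within French bulldogs (n = 10) the sum correlated with HIP1 at r = 0.827 (permutation p = 0.00249, adjusted 0.0113 over 7 marker lists) and rho = 0.867 (permutation p = 0.00202, adjusted 0.0141). Without dog 6, r was 0.740 (permutation p = 0.0224, adjusted 0.112) and rho was 0.817 (permutation p = 0.0110, adjusted 0.0730). Without dogs 6 and 11, r was 0.649 (permutation p = 0.0864, adjusted 0.340) and rho was 0.738 (permutation p = 0.0458, adjusted 0.243), so the adjusted call was lost at these smaller n. In the comparison group (n = 7) r was 0.565 (exact permutation p = 0.184, adjusted 0.322) and rho was 0.571 (exact permutation p = 0.200, adjusted 0.467), and r was 0.242 without Boston terriers 2 and 6.

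Sums of macrophage and microglia markers moved the other way among French bulldogs. Between the groups, 4 of the 8 markers (CD163, C1QA, C1QB and AIF1) had an unadjusted p under 0.05 by edgeR, each with the higher mean in French bulldogs. Of all genes, 7.02% passed with the higher mean and 10.6% in either direction. None of the 8 markers passed after adjustment. P2RY12 of the same list had a log2 fold change of -0.22 (SE 0.36). The 4 markers and P2RY12 were named after their values were seen. Without French bulldog 6, none of the 8 had an unadjusted p under 0.05 by edgeR, and the log2 fold change of CD163 went from 4.94 to 1.05. The sum of all 8 markers correlated with HIP1 at r = -0.743 (n = 10, permutation p = 0.00420, adjusted 0.0113) and rho = -0.697 (permutation p = 0.0300, adjusted 0.0699). Of the 4 T cell markers, CD2 alone passed the filter on low counts, with a log2 fold change of 2.03 (SE 0.77, adjusted p = 0.433 by edgeR's quasi-likelihood test) and 1.03 (SE 0.51) without French bulldog 6. The T cell sum was 75.8 CPM in French bulldog 6, 0.771 to 8.40 in the other French bulldogs and 0.585 to 4.14 in the comparison group. Outside dog 6, 3 of the 4 genes were at 0 counts in at least 1 library, so this sum rests on few counts. Among French bulldogs the T cell sum gave r = -0.748 (permutation p = 0.00486, adjusted 0.0113) and rho = -0.830 (permutation p = 0.00473, adjusted 0.0166). Neither held after adjustment without dog 6, where the r values were -0.672 and -0.668 (permutation test, adjusted p = 0.112 for each), and without dogs 6 and 11 they were -0.563 and -0.566. In the comparison group (n = 7) r was -0.613 (exact permutation p = 0.143, adjusted 0.322) for the macrophage and microglia sum and -0.607 (exact permutation p = 0.148, adjusted 0.322) for the T cell sum, with rho of -0.321 and -0.429 (exact permutation p = 0.498 and 0.354, adjusted 0.581 for both). Without Boston terriers 2 and 6 these r were -0.172 and 0.703. HIP1 in French bulldogs other than dog 6 was 248 ± 60.3 CPM (SD, n = 10). Of the remaining marker lists, the oligodendrocyte lineage sum had r = 0.618 among French bulldogs (permutation p = 0.0466, adjusted 0.0815) and 0.320 without dog 6. In the comparison group its r was -0.213, and -0.938 without Boston terriers 2 and 6. Astrocyte, myelin and endothelial sums had r of 0.416, 0.347 and -0.286 among French bulldogs, and -0.180, -0.0533 and -0.407 without dog 6. The part of these cell type amounts in the level of HIP1 was not tested beyond these values.

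The wider pathway was read from 13 lists of endocytosis genes, with 148 genes besides the 10 above, of which 126 were tested. None of the 126 had an adjusted p under 0.05 between French bulldogs and the comparison group by edgeR, DESeq2 or limma-voom, and none was without overlap between the groups. At an unadjusted p under 0.05 by edgeR, 11 of the 126 passed (8.73%, beside 10.6% of all genes), 7 with the higher and 4 with the lower mean in French bulldogs, and 12 of 126 passed by limma-voom (9.31% of all genes) and 14 of the 129 that DESeq2 tested (9.63% of all genes). The median log2 fold change was 0.04, as for all genes. The remaining AP2 subunits, AP2A2, AP2M1 and AP2S1, had log2 fold changes of -0.05 to 0.09.

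**Figure D5:**
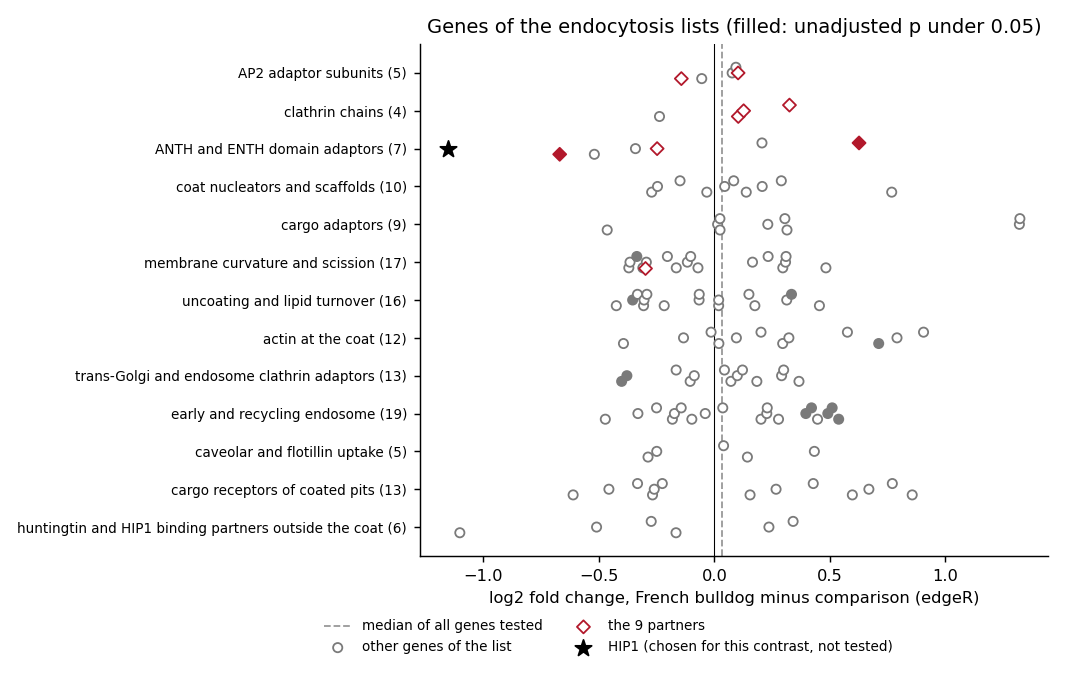
Log2 fold changes of French bulldogs minus the comparison group fitted by edgeR, for genes of 13 endocytosis lists, with the number of genes tested in brackets. Filled marks have an unadjusted p under 0.05, diamonds are the 9 partners, the star is HIP1, which was chosen for this contrast and not tested, and the dashed line is the median of all genes tested (0.04). HIP1 lies at -1.15, and 5 of the 19 genes of the early and recycling endosome list are filled, each above 0.

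The list of early and recycling endosomes held 5 of the 11 genes, each with the higher mean in French bulldogs, so 5 of its 19 genes passed an unadjusted p of 0.05 in that direction, beside 7.02% of all genes. Enrichment of the list was not tested. EEA1, the tether that early endosomes use to fuse, was 165 ± 51.9 CPM (SD, n = 11) in French bulldogs and 117 ± 14.6 CPM (SD, n = 7) in the comparison group, which gave a log2 fold change of 0.49 (SE 0.18, adjusted p = 0.433 by edgeR's quasi-likelihood test). VPS26A, VPS35 and VPS29, which together form the core of retromer, the complex that returns cargo from endosomes, had log2 fold changes of 0.54 (SE 0.21), 0.40 (SE 0.16) and 0.42 (SE 0.17). RAB5C, a GTPase of early endosomes, had 0.51 (SE 0.23). VPS35, VPS29 and RAB5C were named after their values were seen. Without French bulldog 6 the values of these 5 genes were 0.31 to 0.39, and their unadjusted p by edgeR ran from 0.00574 to 0.0497. The median of the 19 genes of this list was 0.20, with 11 higher and 8 lower. RAB5A and RAB5B, paralogs of RAB5C in the list, had -0.33 (SE 0.20) and 0.04 (SE 0.13), and were also named with their values in view.

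Uncoating and lipid turnover gave 1 gene in each direction. GAK, the cofactor that brings the chaperone HSC70 to clathrin coats, was 81.0 ± 15.9 CPM (SD, n = 11) in French bulldogs and 103 ± 18.6 CPM (SD, n = 7) in the comparison group, which gave a log2 fold change of -0.35 (SE 0.15, adjusted p = 0.433 by edgeR's quasi-likelihood test). HSPA8, which encodes HSC70 itself, was 163 ± 37.9 CPM (SD, n = 11) and 129 ± 13.5 CPM (SD, n = 7), a log2 fold change of 0.33 (SE 0.15, adjusted p = 0.452 by edgeR's quasi-likelihood test). Among the adaptors of the trans-Golgi network and endosomes, GGA1 and AP1S2 had log2 fold changes of -0.40 (SE 0.15) and -0.38 (SE 0.17). Of the genes that bend and cut the membrane, PACSIN2, a dynamin-binding protein, had -0.34 (SE 0.15), and SNX18 had 0.31 (SE 0.17). Of the actin genes, ACTR3, a subunit of the Arp2/3 complex, had 0.71 (SE 0.32) and 0.35 without French bulldog 6, and ARPC5, another subunit, had 0.79 (SE 0.42) and 0.26 without it. SNX18 and ARPC5 did not reach an unadjusted p of 0.05 by edgeR's quasi-likelihood test (p = 0.0854 and 0.0781).

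The leading genes of the remaining lists did not reach an unadjusted p of 0.05 by edgeR, whereas RHOD had 0.0324 by DESeq2. STON2, a cargo adaptor for synaptotagmin, and M6PR, a receptor for lysosomal enzymes, had log2 fold changes that shrank without French bulldog 6, 1.32 (SE 0.65) and 0.86 (SE 0.47) with it against 0.33 and 0.13 without it. EPS15, a scaffold of the nascent pit, had 0.77 (SE 0.46) with that library and 0.44 without it. TOM1, EPS15L1, EHD2, HTT and RHOD had values from -0.51 to -0.25, and FLOT1 and IGF2R had 0.43 each. Without French bulldog 6, EPS15L1, EHD2 and IGF2R had -0.16, -0.11 and 0.27. HTT, the huntingtin gene that gave HIP1 its name, was 169 ± 35.0 CPM (SD, n = 11) in French bulldogs and 204 ± 32.6 CPM (SD, n = 7) in the comparison group (log2 fold change -0.27, SE 0.15, adjusted p = 0.514 by edgeR's quasi-likelihood test).

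The genes next to HIP1 on its chromosome were read in RefSeq order on the UU_Cfam_GSD_1.0 assembly, 5 on each side. Of these 10 neighbours, 9 were in the counts and 5 were tested, and the 5 had log2 fold changes below 0, beside 46.3% of all genes. None had an unadjusted or adjusted p under 0.05 by edgeR, and the median was -0.24. FZD9, a Wnt receptor gene, had -1.15 (SE 0.56, adjusted p = 0.481 by edgeR's quasi-likelihood test) at a mean of 1.75 CPM in French bulldogs and 3.90 CPM in the comparison group, and the other 4, NSUN5, RHBDD2, POR and TMEM120A, had -0.36 to -0.14. These neighbours were named for their position.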

How the data were processed

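RNA was extracted from scrolls of formalin-fixed, paraffin-embedded tumor, and stranded total RNA libraries were sequenced as paired reads. Per the labels and the methods, the authors trimmed reads with Trimmomatic 0.33, mapped them with HISAT2 2.1.0 to the canFam6 assembly and ran featureCounts. The authors deposited raw counts of 29993 genes, 16324 of them with a symbol. How strand and multi-mapped reads were handled is not given in the sources used here, and neither gene lengths nor sequences were used, so levels are not compared between genes. HIP1 and HIP1R, like other paralogs named, may share reads.

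Groups came from the labels. Counts were tested with edgeR 4.0.16 (R 4.3.3): TMM scaling, the filterByExpr filter, robust quasi-likelihood F tests without covariates, two-sided, and Benjamini-Hochberg adjustment over all 16495 genes kept, with 0.05 as threshold. The SE is the size of the log2 fold change over the square root of F. Alternatives were DESeq2 1.42.0, limma-voom (limma 3.58.1), other scalings and filters, 1 surrogate variable (sva 3.50.0), leaving out each library, the sum of French bulldogs 2 and 8, and a block by dog number. Ratios used raw counts plus 0.5, log2 CPM a prior count of 2, and correlations 100000 permutations, or each ordering where n = 7. Totals were 8212452 to 13169880 counts per library, which bounds precision at low levels. The code was first tested on simulated counts with known changes. At an adjusted p under 0.05 by edgeR's quasi-likelihood test, it recovered 10.7% of the tested genes changed 2-fold, 71% at 4-fold and 92.9% at 8-fold. A gene that did not pass may therefore still differ between the groups. Figures were made with Python 3.11.15 and matplotlib 3.10.9.

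The members and gene lists were chosen with earlier results of these data known. Named were the 10 members, the 2 genes of smallest unadjusted p in each list, list genes without overlap between groups, and the 5 genes most like HIP1 by each of 2 measures. Other genes were picked with their values in view or for their position, as the text says. The added alternatives, which are the fits without French bulldog 6 by DESeq2, with dogs 2 and 8 summed and in the correlations, the fit over dogs 1 to 7 without a block, and the correlations with marker sums, were chosen after seeing the data. The numbers 1 to 7 that both groups carry did not pair the libraries, since the correlations of their deviations ran from -0.502 to 0.205.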

Additional observations from a re-analysis of the deposited data

Results flagged for a closer look

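In groups of 4 to 10 libraries, the gap of the highest or lowest library to its nearest neighbour was set against the whole range of the group, for 28 combinations of a gene or a ratio of 2 genes with a group, and 2 passed Dixon's 95% critical value, which chance passes in about 1 of 20 groups. HIP1 in the comparison group passed through Boston terrier 6, at 813 CPM against 408 to 558 CPM in the other 6 libraries, with a gap of 0.628 of the range. CLTA in boxers passed through boxer 4, at 46.4 CPM against 36.1 to 36.8 CPM in the other 3 boxers, with a gap of 0.926 of the range. Without Boston terrier 6 French bulldogs had a fitted HIP1 log2 fold change of -1.02.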

How the results depend on the processing

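Of 812 values recomputed under an alternative, 764 kept their direction and, where the value has a test, their side of the threshold, 30 turned direction and 18, which are counts at an unadjusted p, moved by over 1.5 times. No partner and no list gene had an adjusted p under 0.05 under any of the 36 alternatives for French bulldogs against the comparison group, and HIP1, given without a test, kept its direction in each. The unadjusted count of partners was 0 to 3 and that of list genes 2 to 16 over them, where 3.17% to 12.8% of all genes passed. Turned values, each of a result that passed no test, were as follows, and the cause was not tested. With 1 surrogate variable the log2 fold change of CLTA was -0.0705. Over dogs 1 to 7 CLTB was -0.0026 without a block and -0.0154 with the replicate block. Leaving out each library gave AP2A1 -0.22 to 0.015 and the CLTA to CLTB ratio -0.20 to 0.011. Between boxers and Boston terriers, HIP1 was 0.0461 with the library run as covariate, and leaving out each library gave -0.25 to 0.29 for HIP1, -0.0327 to 0.40 for EPN1, -0.0288 to 0.0864 for CLTC, -0.15 to 0.26 for AP2A1 and -0.0929 to 0.13 for DNM2. Without the 2 libraries farthest from the median, r with HIP1 among French bulldogs was -0.111 for HIP1R, 0.564 for PICALM, 0.462 for CLTC and 0.507 for AP2B1, and without dog 6 it was 0.222, 0.706 and 0.545 for the last 3. In the comparison group it was -0.661 for HIP1R, -0.785 for PICALM, -0.418 for EPN1, -0.627 for CLTB and -0.267 for AP2A1, and with upper quartile scaling -0.0416 for PICALM.

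Same-numbered dogs correlated best with their own number in 2 of 7 cases. The replicate block over dogs 1 to 7 left 0 partners and 2 list genes at an unadjusted p under 0.05, against 1 and 9 without it, and 967 against 1726 of all genes. The log2 fold change of HIP1 was -1.20 with the block. The lowest count of any of the 10 genes was 51, for HIP1R in French bulldog 6. Few libraries, their mixed cell content and breed as the sole label limit what these comparisons can resolve.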
